A study of Mus musculus with 20 samples.

Results

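Adriamycin (ADR, doxorubicin) was compared with saline in the whole kidneys of mice that lack telomerase reverse transcriptase (TERT), the catalytic subunit of telomerase. The comparison takes 5 of the 20 libraries of the series, all of them TERT KO/KO: ADR replicates 1 and 3 against saline replicates 1, 2 and 3. Each library came from 1 female mouse, 2 months old by its label, on the Balb/c background to which the knockout had been backcrossed for 10 generations. ADR mice had received 12 mg/kg ADR and control mice saline, in both cases into a vein, and kidneys were taken at day 18. The knockout is constitutive and both groups carry it, so it is not what is compared. All genes with enough counts for a test were included, which left 17951 of 55471. ADR replicate 2 was left out because Alb, serum albumin, the main secreted product of hepatocytes, took 26.1% of its counts. In the 5 libraries used, Alb took at most 0.00829%. Wild-type (TERT WT/WT) littermates entered a test of whether the effect of ADR differed between genotypes. They also entered the values marked below as wild-type or as fitted or scaled over 12 libraries.

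ADR nephropathy is a model of focal segmental glomerulosclerosis, in which the drug injures podocytes, the cells that wrap the glomerular capillaries and hold back plasma protein with their slit diaphragms. Protein that passes the injured filter reaches the tubules, where proximal tubule cells normally take it back up and where injury markers, inflammation and scar matrix then appear. Doxorubicin itself intercalates into DNA and traps topoisomerase II, and cells with damaged DNA activate p53, whose targets hold the cell cycle.

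The 5 libraries held 40141593 to 45722952 counts each, on 23837 to 25991 genes. The 2 ADR libraries stood further apart (median absolute log2 difference 0.313 per gene, 1978 genes over 2-fold) than any pair of saline libraries (0.166 to 0.237, 752 to 1146 genes). Mitochondrially encoded genes took 13.96 to 14.72% of the counts in the ADR libraries and 16.7 to 25.4% in the saline libraries. Tert had 210 and 105 counts after ADR and 132, 87 and 51 after saline (log2 fold change 0.46, SE 0.42, edgeR adjusted p = 0.533), but the deleted part of the gene is not named in the sources used here, so these reads do not check the labels. Values below are CPM, counts scaled to library size with TMM factors, and log2 fold changes are ADR minus saline with their standard error (SE). A number given for a gene with no unit is its log2 fold change. A gene is called at an edgeR quasi-likelihood adjusted p under 0.05, and rose or fell is written of called genes.

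ADR changed 1710 of the 17951 genes tested (9.53%), of which 1022 were higher (5.69%) and 688 lower (3.83%) after ADR. The ADR and saline libraries did not overlap for any called gene, and neither did they for 43.3% of all genes tested, 21.4% with ADR higher and 22% with ADR lower. The median log2 fold change over all genes tested was -0.01. Rises were larger than falls, with 314 rises and 60 falls of at least 4-fold, although 360 rises and 361 falls were under 2-fold. Of the genes that rose, 819 (80.1%) were higher in ADR replicate 3 than in replicate 1, and 414 of those that fell (60.2%) were lower in replicate 3. Leaving out saline replicate 1, 2 or 3 left 447, 642 or 506 calls, and leaving out ADR replicate 1 or 3 left 4452 or 1706. With ADR replicate 2 kept in the fit, 1 gene was called.

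**Figure D1:**
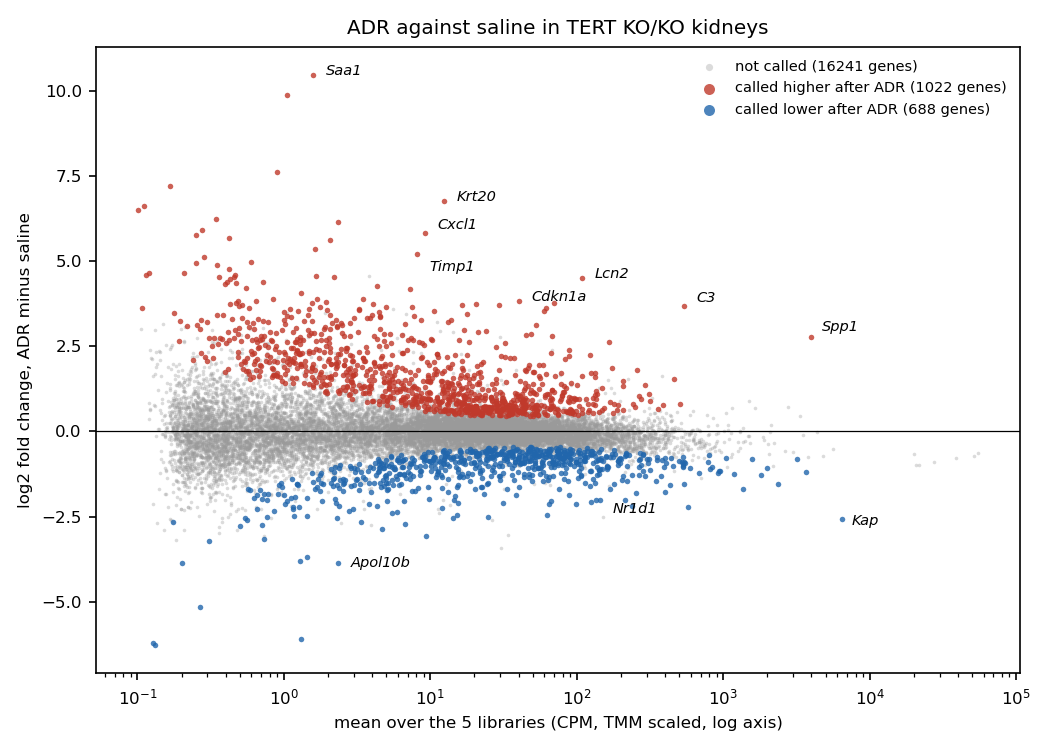
Log2 fold change (ADR minus saline, y axis) of each of the 17951 genes tested against its mean level over the 5 TERT KO/KO libraries (CPM, log x axis). Red points are the 1022 genes called higher, blue points the 688 called lower and grey points those not called. The rises reach further from 0 than the falls, and the height of points with no saline count depends on the fit's prior count.

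Where the mean level was at least 1 CPM, leaving out predicted genes and immunoglobulin and T cell receptor segments, the 12 that rose most were led by Saa1, an acute-phase apolipoprotein. Saa1 had 241 and 160 counts after ADR and 0, 0 and 0 after saline, so at a floor of 3 counts per library it was at least 51.1-fold higher (edgeR adjusted p = 0.00245), with the limit that Saa2 is a near copy and could share its reads. Crct1, a gene of the epidermal barrier cluster, likewise went from no count in any saline library to 107 and 165 counts (at least 34.0-fold higher). Neither gene had a read in any saline kidney and both had reads in both ADR kidneys. Krt20 (chr11:99428403-99438150, minus strand), a keratin of differentiated epithelia, stood at 16.7 and 44.7 CPM after ADR and 0.248, 0.503 and 0.108 CPM after saline (log2 fold change 6.75, SE 0.58, edgeR adjusted p = 0.00202). The other 9 were Fosl1 (6.15), Fos (4.26) and Egr2 (4.57) among transcription factors, Cxcl1 (5.81), Cxcl2 (5.35), Il1rn (5.60) and Lif (4.52) among cytokines and their antagonists, Timp1 (5.19), an inhibitor of metalloproteinases, and Lcn2 (4.50), which binds siderophores. Under the same limits, the largest falls were in Apol10b (-3.86), Tprg (-3.81), Slc22a28 (-3.07), an organic anion transporter, and Ly6f (-2.87). They were followed by Pde6a (-2.72), Naaladl1 (-2.65), Kap (-2.57), Hmcn2 (-2.53), Lypd1 (-2.49), Slc34a3 (-2.45), Adgrg4 (-2.39) and Fam25c (-2.35).

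Among the gene lists, markers of injured tubule cells were higher after ADR in 20 of 25 tested, with none lower and a median log2 fold change of 1.60. Lcn2 (chr2:32384633-32388252, minus strand), also known as NGAL, stood at 205 and 307 CPM after ADR and 6.36, 15.6 and 12.1 CPM after saline (log2 fold change 4.50, SE 0.37, edgeR adjusted p = 0.0017). Spp1, the secreted phosphoprotein osteopontin, stood at 5849 and 10555 CPM after ADR and 1188, 1082 and 1340.2 CPM after saline (log2 fold change 2.77, SE 0.28, edgeR adjusted p = 0.00256). Both ADR kidneys lay far above all saline kidneys for both genes. Havcr1, which encodes KIM-1, a phagocytic receptor of damaged proximal tubule cells, stood at 211 and 690.3 CPM after ADR and 145, 105 and 141 CPM after saline (log2 fold change 1.79, SE 0.43, edgeR adjusted p = 0.0432), so its rise was carried mainly by ADR replicate 3. Tnfrsf12a, the receptor for TWEAK (2.83), Plaur, the urokinase receptor (1.85), Gdf15 (2.91), Vim (1.60) and Hbegf (1.37) also rose. Of 11 keratins tested, Krt20, Krt8 (0.96), Krt18 (0.76) and Krt19 (1.12) rose and none fell. In whole kidney, a change in the number of cells of a type and a change in RNA per cell cannot be told apart. The higher members numbered 22 and 19 without ADR replicate 1 and 3 and 13, 15 and 14 without saline replicate 1, 2 and 3.

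**Figure D2:**
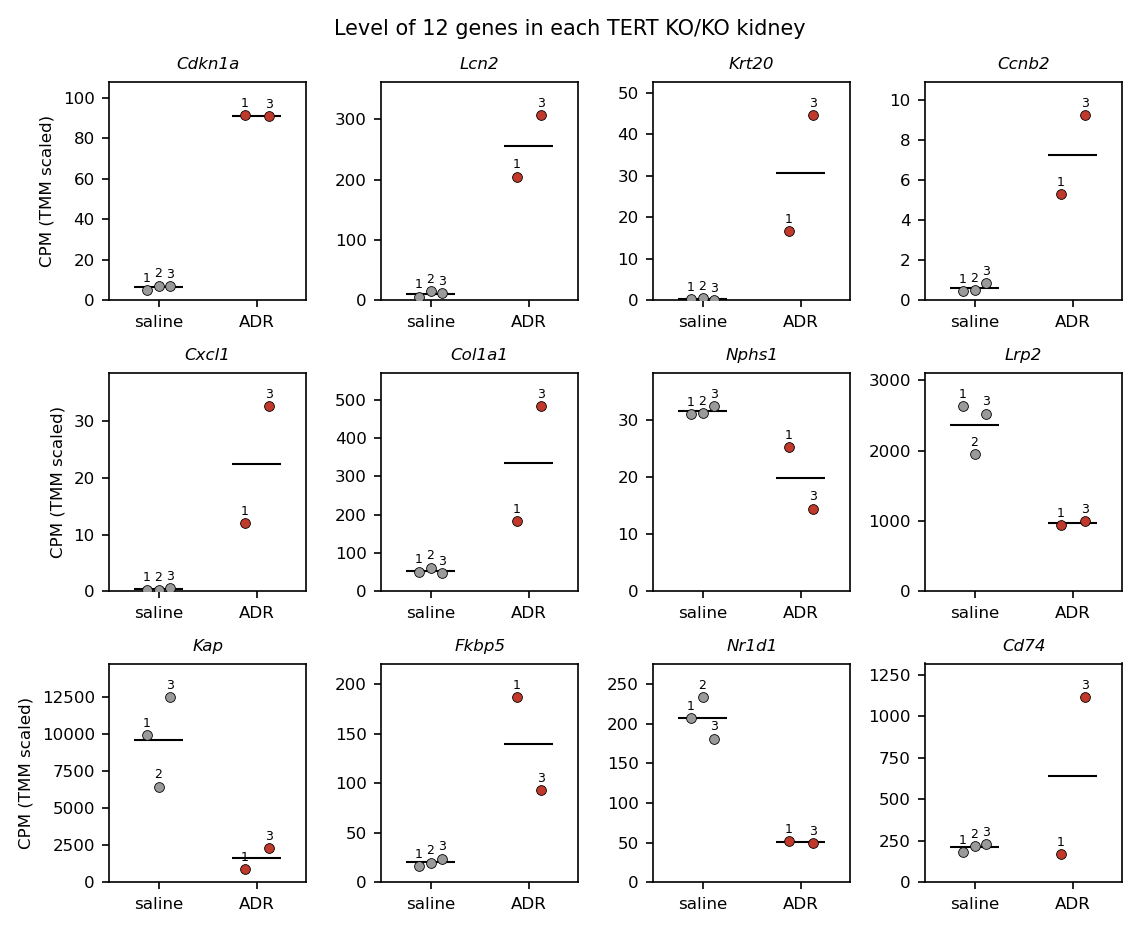
CPM (TMM scaled, linear y axis from 0) of 12 genes in each of the 5 TERT KO/KO kidneys. Each point is 1 library with its replicate number beside it, grey for saline and red for ADR, and the bar is the group mean. Cdkn1a, Lrp2 and Nr1d1 stood at nearly the same level in both ADR kidneys, whereas Cd74 was high in ADR replicate 3 alone.

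Cell cycle genes moved together. Of 46 genes of mitosis and G2/M tested, 41 were higher and none lower, with a median log2 fold change of 2.88, and of 34 genes of DNA replication and S phase 21 were higher and none lower (median 1.01). Ccnb2, cyclin B2, which partners the mitotic kinase, stood at 5.28 and 9.24 CPM after ADR and 0.474, 0.503 and 0.865 CPM after saline (log2 fold change 3.57, SE 0.36, edgeR adjusted p = 0.00256). Ube2c, the ubiquitin-conjugating enzyme of the anaphase-promoting complex, stood at 9.95 and 16.5 CPM after ADR and 1.35, 2.21 and 2.05 CPM after saline (log2 fold change 2.83, SE 0.29, edgeR adjusted p = 0.00257). For both genes replicate 3 was the higher of the ADR kidneys and replicate 1 still lay above all saline kidneys. Mki67, a marker of cycling cells (3.28), Tpx2 and Pbk of the mitotic spindle (3.01 and 3.05), and Top2a, the topoisomerase II form of cycling cells and a target of doxorubicin (3.38), rose likewise. In the S phase list the helicase subunits Mcm5 (1.65), Mcm6 (2.69) and Mcm2 (0.91), Uhrf1, which maintains DNA methylation (2.75), and Chaf1b, a histone chaperone (1.85), rose. The mitosis list lay 2.14 above the saline mean in ADR replicate 1 and 3.20 in replicate 3 (median over its genes, log2). Leave-one-out counts of higher members were 42 and 37 without ADR replicate 1 and 3 and 24, 28 and 32 without saline replicate 1, 2 and 3 for mitosis, and 26 and 17 without ADR replicate 1 and 3 and 9, 10 and 8 without saline replicate 1, 2 and 3 for S phase.

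Because mitotic genes moved as a group, their promoters were searched for CCAAT and for TTTGAA, the letters of the cell cycle homology region, in the 250 bases before the RefSeq gene start (GRCm38.p6, both strands). CCAAT was found in 31 of 41 promoters of the mitosis list (75.6%) against 33.9% of all 32851 promoters, and TTTGAA in 14 of 41 (34.1%) against 15.99%. A promoter was given for 38 of the 46 genes, and not for Pbk or Tpx2. The pair occurred together in 29.3% of the list's promoters and in 5.55% of all promoters. Over every gene called higher the shares were 36.9% for CCAAT and 13.1% for TTTGAA, and over every gene called lower 34.7% and 14.7%. Over promoters of all genes tested they were 34.5% for CCAAT, 11.2% for TTTGAA and 4.09% for the pair. The 2 promoters below, of mitotic genes named above, hold both sets of letters, with matches on either strand in capitals (ATTGG and TTCAAA are the reverse strand). They are written along the gene's strand, from chr9:70421555-70421804 (minus strand, 250 bases) and chr2:164769679-164769905 (plus strand, 227 bases, the last of them 24 bases before the start). A match is a description of the letters and was not tested for binding.
Ccnb2: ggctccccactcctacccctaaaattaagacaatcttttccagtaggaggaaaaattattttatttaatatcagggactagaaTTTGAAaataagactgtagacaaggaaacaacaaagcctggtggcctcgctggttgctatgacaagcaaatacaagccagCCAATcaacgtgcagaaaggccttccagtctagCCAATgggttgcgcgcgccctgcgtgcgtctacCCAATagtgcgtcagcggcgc
Ube2c: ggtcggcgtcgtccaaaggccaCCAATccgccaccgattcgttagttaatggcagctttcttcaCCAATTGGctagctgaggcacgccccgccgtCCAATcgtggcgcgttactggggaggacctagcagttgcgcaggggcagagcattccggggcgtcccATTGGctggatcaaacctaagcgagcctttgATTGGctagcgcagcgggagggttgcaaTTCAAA
The Ccnb2 window held CCAAT at 87, 54 and 21 bases before the start and TTTGAA at 167. The Ube2c window held 6 matches to CCAAT, a pair of which overlap each other at 186 and 183 bases, and TTTGAA at 29 bases before the start. The order differed, with TTTGAA upstream of the CCAAT matches in Ccnb2 and downstream of them in Ube2c, so no common arrangement is shown. Of the S phase list, 12 of 35 promoters (34.3%) held TTCCCGC or TTGGCGC, forms of the E2F core (both strands). The share was 9.01% over promoters of all genes tested and 5.62% over all promoters. CCAAT was found in 21 of 35 promoters of the S phase list (60%), so a high share was not limited to the mitosis list. Shares of both lists were taken over all members, called or not, so they describe the lists and not the response to ADR.

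Genes that p53 activates rose in 16 of 32 tested, with none lower (median 0.73). Cdkn1a (chr17:29090976-29100727, plus strand), which encodes the cyclin-dependent kinase inhibitor p21, stood at 91.6 and 90.9 CPM after ADR and 5.01, 7.32 and 7.06 CPM after saline (log2 fold change 3.82, SE 0.18, edgeR adjusted p = 0.000456). The 2 ADR kidneys were almost equal and both lay far above every saline kidney. Phlda3, an inhibitor of AKT (2.05), Plk3 (2.46) and Gdf15 (2.91) rose with it. The p53 list lay 0.70 and 0.79 above the saline mean in ADR replicates 1 and 3. Of 25 genes of the DNA damage response, 10 were higher and none lower, among them Brca1 (2.42), Rad54l (2.43), Clspn (2.57) and Fancd2 (2.32), all of which act at replication forks or in homologous recombination, while the damage kinase Atm stood at 0.26 (edgeR adjusted p = 0.393). Of 19 senescence-linked genes, 5 rose, among them Cdkn1a, Gdf15, Cxcl1 and Ccl2 (3.64), and Igfbp3 fell (-1.14). In the telomerase holoenzyme list, 1 of 10 genes passed, Nop10 (-0.50), a protein of the H/ACA particle that binds the telomerase RNA. The higher genes of the DNA damage response numbered 15 and 10 without ADR replicate 1 and 3 and 2, 5 and 4 without saline replicate 1, 2 and 3. Leave-one-out counts of higher p53 targets were 19 and 15 without ADR replicate 1 and 3 and 6, 8 and 9 without saline replicate 1, 2 and 3.

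Immediate early genes and AP-1 subunits, the transcription factors that cells switch on within minutes of a stimulus, were higher in 19 of 20 tested, with a median log2 fold change of 2.19. Fos stood at 6.17 and 13.96 CPM after ADR and 0.406, 0.419 and 0.757 CPM after saline (log2 fold change 4.26, SE 0.42, edgeR adjusted p = 0.00245). Fosl1 stood at 5.65 and 5.82 CPM after ADR and 0.0225, 0.140 and 0.0811 CPM after saline (log2 fold change 6.15, SE 0.45, edgeR adjusted p = 0.00131), and Atf3, a stress-induced factor, at 13.4 and 20.2 CPM after ADR and 0.970, 0.475 and 1.30 CPM after saline (log2 fold change 4.19, SE 0.36, edgeR adjusted p = 0.0017). No ADR kidney overlapped a saline kidney for these 3 genes. Nr4a1 (2.69), Maff (2.40), Egr2 (4.57) and Myc (1.91) rose as well. The higher members numbered 19 and 18 without ADR replicate 1 and 3 and 15, 16 and 15 without saline replicate 1, 2 and 3. Of 23 RAS and ERK targets 9 rose, with Fosl1, Lif, Epha2 (1.27) and Ier3 (1.84) leading, and Etv5 fell (-0.76). In the EGF receptor family the ligands Nrg1 (1.85) and Hbegf and the receptor Erbb4 (1.04) rose.

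Inflammatory signalling genes followed. Of 34 genes of the NF-kB group, 20 were higher and none lower (median 1.22), including Icam1, an adhesion molecule for leukocytes (1.73), Csf1, the macrophage growth factor (2.17), and the feedback inhibitors Tnfaip3 (2.19) and Nfkbia (1.14). Cxcl1, a chemokine for neutrophils, stood at 12.0 and 32.6 CPM after ADR and 0.293, 0.279 and 0.622 CPM after saline (log2 fold change 5.81, SE 0.51, edgeR adjusted p = 0.00201). Ccl2, the chemokine for monocytes, stood at 6.60 and 26.9 CPM after ADR and 0.857, 1.87 and 1.32 CPM after saline (log2 fold change 3.64, SE 0.60, edgeR adjusted p = 0.0157). For both genes ADR replicate 3 was the highest library and replicate 1 the next. The promoter of Cxcl1 is shown because the gene had the largest rise of any chemokine with a mean of at least 1 CPM. Its 246 bases at chr5:90890995-90891240 (plus strand) held 2 overlapping matches to the NF-kB consensus, in capitals, at 71 and 70 bases before the start.
Cxcl1: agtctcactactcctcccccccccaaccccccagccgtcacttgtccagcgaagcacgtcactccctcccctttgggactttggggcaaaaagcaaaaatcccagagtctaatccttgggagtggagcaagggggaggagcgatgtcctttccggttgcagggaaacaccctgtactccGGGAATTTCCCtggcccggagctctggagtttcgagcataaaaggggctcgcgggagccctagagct
The NF-kB consensus was added to the search after the calls had been seen. It matched 14 of 34 promoters of the NF-kB list (41.2%), 13.04% of promoters of all genes called higher and 8.67% of those called lower. The share was 8.97% over promoters of all genes tested and 7.25% over all promoters. Part of the list was chosen because its genes are known NF-kB targets, so its share is not independent of the motif. Of 16 CXC and CX3C chemokines 5 rose, namely Cxcl1, Cxcl2, Cxcl10 (2.31), Cxcl17 (3.32) and Cxcl3 (2.66). Of 17 CC chemokines 5 rose, namely Ccl20 (17 and 70 counts after ADR and 1 in each saline library), Ccl2, Ccl12 (2.63), Ccl6 (2.63) and Ccl7 (2.65). Leave-one-out counts were 27 and 14 without ADR replicate 1 and 3 and 8, 10 and 9 without saline replicate 1, 2 and 3 for the NF-kB group and 13 and 3 without ADR replicate 1 and 3 and 0, 1 and 1 without saline replicate 1, 2 and 3 for CC chemokines.

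Of 17 genes of the IL-6 family and STAT3, 9 rose and none fell. They included Lif, a cytokine of the family, the factors Cebpd (2.14) and Cebpb (2.20) and the feedback inhibitor Socs3 (2.70). Acute-phase genes, known mainly from liver, rose in 9 of 12 tested (median 2.83), with Serpina3n (3.54), Saa3 (4.96), Lbp (1.98) and Cp (1.86) beside Lcn2 and Saa1. Hepatocyte markers were read beside them. Of 14 tested, Trf rose (0.84) and Ttr fell (-1.63), and their summed level was 133 and 129 CPM in ADR replicates 1 and 3 and 229, 113 and 134 CPM in the saline libraries. Alb itself had 272 and 399 counts after ADR and 3760, 686 and 516 after saline (log2 fold change -2.59, SE 0.86, edgeR adjusted p = 0.124), with saline replicate 1 apart from the other 4 libraries. Of 19 complement genes 6 rose, led by C3, the central component, which stood at 826 and 1591 CPM after ADR and 81.7, 125 and 78.3 CPM after saline (log2 fold change 3.67, SE 0.33, edgeR adjusted p = 0.00181), with both ADR kidneys far above every saline kidney. C7 (2.87), C4b (1.79) and Masp1 (1.71) also rose. Of 11 S100 proteins, S100a6 (1.78), S100a10 (0.95) and S100a11 (1.04) rose.

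Leukocyte markers split the 2 ADR kidneys. Summed over all 28 macrophage and monocyte markers (CPM without TMM factors, as for all sums here), the level was 336 and 1145 CPM in ADR replicates 1 and 3 and 247, 259.7 and 287 CPM in the saline libraries, and 6 were called higher. Cd68, of macrophage lysosomes, stood at 14.3 and 26.6 CPM after ADR and 6.16, 6.48 and 6.22 CPM after saline (log2 fold change 1.70, SE 0.24, edgeR adjusted p = 0.00754), and Itgam, CD11b, at 2.97 and 5.13 CPM after ADR and 0.586, 0.978 and 0.433 CPM after saline (log2 fold change 2.61, SE 0.40, edgeR adjusted p = 0.00945). Replicate 3 was far above the saline kidneys for both genes and replicate 1 closer to them. Fcgr3 (1.74) and Gpnmb (2.09) were among the 6, whereas Adgre1, F4/80, stood at 2.07 and 9.17 CPM after ADR and 2.84, 2.65 and 3.35 CPM after saline (edgeR adjusted p = 0.299). Class II major histocompatibility genes summed to 541 and 3217 CPM in ADR replicates 1 and 3 and 484, 540.0 and 579 CPM in the saline libraries, and Ifi30 (0.58) was the 1 of 9 tested that passed, against 9 without ADR replicate 1. Cd74, the class II invariant chain, stood at 169.6 and 1116 CPM after ADR and 183, 219 and 229 CPM after saline (edgeR adjusted p = 0.199), so that replicate 1 lay below every saline kidney and replicate 3 above. The 29 interferon-stimulated genes summed to 325 and 852 CPM in ADR replicates 1 and 3 and 367, 357 and 383 CPM in the saline libraries. T and NK cell markers summed to 8.33 and 35.2 CPM in ADR replicates 1 and 3 and 10.7, 12.9 and 12.3 CPM in the saline libraries over 18 genes. In both lists replicate 1 was below the lowest saline kidney and replicate 3 above the highest. edgeR called none of the 29 interferon-stimulated genes (8 at an unadjusted p under 0.05, 3 by DESeq2 and 0 by limma voom), but 19 were called higher without ADR replicate 1 and 8 lower without ADR replicate 3. It also called none of the 16 T and NK cell markers tested (1 at an unadjusted p under 0.05, 1 by DESeq2 and 0 by limma voom), and 5 of them without ADR replicate 1. Neutrophil markers were low in all 5 kidneys, 11.8 and 7.53 CPM in ADR replicates 1 and 3 and 2.49, 5.16 and 3.64 CPM in the saline libraries over 13 genes, and edgeR called none of the 6 tested (1 at an unadjusted p under 0.05, 0 by DESeq2 and 0 by limma voom). Of 9 B and plasma cell markers 1 was called, as lower. The median over the 28 macrophage markers was 0.37 above the saline mean in ADR replicate 1 and 1.94 in replicate 3 (log2). It ran from -0.17 to 0.13 in the saline kidneys. In replicate 1 these markers did not all move the same way, and Adgre1 lay below every saline kidney. The part that leukocytes play in the inflammatory, chemokine and matrix lists was not tested.

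Scar matrix genes rose. Of 25 interstitial collagens and crosslinking enzymes 10 were higher and none lower (median 0.50). Col1a1, the chain of fibrillar collagen I, stood at 184 and 484 CPM after ADR and 51.2, 62.2 and 47.9 CPM after saline (log2 fold change 2.63, SE 0.36, edgeR adjusted p = 0.00732). Col3a1 (2.39), Col1a2 (1.71), Col6a1 (1.20), Col12a1 (0.87) and the crosslinker Lox (2.20) rose beside it. Of 23 matrix glycoproteins 9 rose, including Spp1, Ccn1 (3.62), Ccn2, the connective tissue growth factor (2.24), and Tgfbi (2.23), and Tnn fell (-1.63). Basement membrane genes rose in 4 of 20, among them Col4a1 (0.76), Col4a2 (0.79) and Agrn (0.63). Of 19 fibroblast markers 5 rose, with Dcn (0.67) and Mfap5 (1.96) beside collagens, and Fbln5 fell (-0.64), while Fn1, fibronectin, stood at 0.89 (edgeR adjusted p = 0.123). Of 27 genes of the TGF-beta family 7 rose, with Tgfb1 at 0.73, Inhbb, an activin subunit, at 1.94 and Fst, its antagonist, at 0.90. The higher members of the TGF-beta family numbered 8 and 4 without ADR replicate 1 and 3 and 1, 1 and 3 without saline replicate 1, 2 and 3, and 3 in the fit over 12 libraries. Leave-one-out counts for the collagens were 18 and 8 without ADR replicate 1 and 3 and 4, 6 and 3 without saline replicate 1, 2 and 3.

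The study follows matrix metalloproteinases in these mice, so the 4 that it names first for them are given by library. Mmp10, stromelysin 2, had 28 and 42 counts after ADR and 0, 1 and 0 after saline, 80.2-fold higher with a counting interval of 13.9 to 3211 at 95% confidence (exact binomial, edgeR adjusted p = 0.00735). Mmp3, stromelysin 1, stood at 0.307 and 0.486 CPM after ADR and 0.225, 0.140 and 0.243 CPM after saline (log2 fold change 0.96, SE 0.51, edgeR adjusted p = 0.277), and Mmp12, the macrophage elastase, at 2.44 and 24.4 CPM after ADR and 1.69, 1.15 and 2.70 CPM after saline (log2 fold change 2.86, SE 0.89, edgeR adjusted p = 0.108). Mmp10 was high in both ADR kidneys, whereas Mmp12 was high in replicate 3 only and its replicate 1 lay inside the saline range. Mmp24 had 3 and 42 counts after ADR and 5, 2 and 1 after saline, and Mmp8, a neutrophil collagenase, had 35 and 3 after ADR and 1, 1 and 2 after saline. Both were too low to test, and each was high in 1 ADR kidney. Mmp2 (0.45, edgeR adjusted p = 0.263), Mmp9 (0.98, 0.329) and Mmp23 (0.24, 0.439) did not pass. Of the 17 metalloproteinases tested, Mmp7 (3.41), Mmp19 (2.52), Mmp14 (1.38) and Mmp27 rose with Mmp10, and Mmp13 (-1.63) and Mmp11 (-0.84) fell. Mmp27 had 18 and 25 counts after ADR and 0, 0 and 0 after saline, at least 5.39-fold higher. Timp1, their inhibitor, stood at 10.9 and 28.2 CPM after ADR and 0.451, 0.587 and 0.568 CPM after saline (log2 fold change 5.19, SE 0.42, edgeR adjusted p = 0.00166), while Timp3 fell (-0.81). The proteases Adamts1 (2.29), Adamts4 (1.98), Adamts2 (1.25) and Adam8 (3.50) rose. In the plasminogen and fibrinogen list 9 of 17 rose, among them Plaur, the thrombin receptor F2r (1.33) and the fibrinogen chain Fga (2.86), while Tfpi2 fell (-0.61).

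Podocyte genes moved in both directions. Nphs1 (chr7:30458315-30487223, plus strand), which encodes nephrin, the adhesion protein of the slit diaphragm, stood at 25.3 and 14.5 CPM after ADR and 31.1, 31.3 and 32.5 CPM after saline (log2 fold change -0.67, SE 0.22, edgeR adjusted p = 0.098), which misses the threshold although both ADR kidneys lay below every saline kidney. Of 13 slit diaphragm genes 2 fell, among them Magi2 (-0.75), and Cdh3 (1.76), Fat1 (1.02) and Kirrel (0.65), which other epithelia can also express, rose, with a median of -0.04. Without saline replicate 1, 2 and 3, the slit diaphragm genes called higher numbered 0, 0 and 0 and those called lower 1, 1 and 1. Of 16 genes of the podocyte cytoskeleton, Synpo, synaptopodin (-0.87), and Rhpn1 (-1.19) fell, and Inf2 (0.76) and Anln (2.79), which also acts in cytokinesis, rose. Of 10 podocyte transcription factors 1 fell, Zhx3 rose (0.75) and Wt1 stood at -0.34 (edgeR adjusted p = 0.328). Of 20 other podocyte genes Sema3g (-1.30), Vegfa (-0.72) and Thsd7a (-0.61) fell, and Ptgds (1.00) and Agrn rose. In this list too, 0, 0 and 0 were called higher and 1, 1 and 1 lower without saline replicate 1, 2 and 3. Parietal cells line Bowman's capsule, and of 11 of their markers Cd44, Cldn1 (1.79), Akap12 (1.93) and Pax8 (0.53) rose. The higher members numbered 1, 1 and 1 without saline replicate 1, 2 and 3. Whether parietal or other cells made these RNAs cannot be told in whole kidney. Cd44, a hyaluronan receptor that leukocytes carry too, stood at 13.05 and 79.0 CPM after ADR and 2.91, 4.42 and 3.00 CPM after saline (log2 fold change 3.75, SE 0.72, edgeR adjusted p = 0.0305), with replicate 3 far above replicate 1.

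Proximal tubule genes fell. Of 28 transporters 9 were lower and 1 higher (median -0.72), and of 29 metabolic enzymes and other proximal tubule genes 11 were lower and 1 higher (median -0.84). Slc34a3, a sodium-phosphate cotransporter, stood at 22.5 and 11.4 CPM after ADR and 92.7, 93.2 and 91.6 CPM after saline (log2 fold change -2.45, SE 0.27, edgeR adjusted p = 0.00315). Kap (chr6:133849851-133853762, minus strand), an androgen-regulated protein of the proximal tubule, stood at 909.7 and 2329 CPM after ADR and 9921, 6444 and 12499 CPM after saline (log2 fold change -2.57, SE 0.47, edgeR adjusted p = 0.0163). The saline kidneys were nearly equal for Slc34a3 and spread widely for Kap, and no ADR kidney reached any of them. The phosphate transporter Slc34a1 (-1.19), the organic anion transporters Slc22a6 (-1.04) and Slc22a8 (-1.17) and Slc6a20b (-1.31) fell, and the exception was the sulfate transporter Slc13a1 (0.64). Gatm, the first enzyme of creatine synthesis (-2.23), Hao2, a peroxisomal oxidase (-1.77), and Acsm1 (-1.32) fell, while Ugt2b37, a glucuronosyltransferase with close relatives, rose (3.60). Of 11 genes of protein reabsorption 2 fell and none rose. Lrp2 (chr2:69424340-69586065, minus strand), megalin, the receptor that retrieves filtered protein, stood at 942 and 1000.0 CPM after ADR and 2635, 1947 and 2526 CPM after saline (log2 fold change -1.29, SE 0.21, edgeR adjusted p = 0.0111), and its partner Cubn, cubilin, at 319 and 296 CPM after ADR and 563, 446 and 566 CPM after saline (log2 fold change -0.77, SE 0.17, edgeR adjusted p = 0.0331). The ADR kidneys were alike and below all saline kidneys for both receptors. In the protein reabsorption list, 0, 1 and 0 genes were called lower without saline replicate 1, 2 and 3, and 0 in the fit over 12 libraries. The lower transporters numbered 17 and 12 without ADR replicate 1 and 3 and 2, 4 and 2 without saline replicate 1, 2 and 3. The lower metabolic genes numbered 20 and 12 without ADR replicate 1 and 3 and 4, 6 and 4 without saline replicate 1, 2 and 3, and a fit over all 12 libraries called none of either list lower.

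In the thick ascending limb, of 18 genes Cldn10 fell (-0.66), Sostdc1 rose (0.62) and Umod, uromodulin, stood at 0.72 (edgeR adjusted p = 0.171). Over all genes tested, 5.69% were called higher and 3.83% lower. In the distal convoluted and connecting tubule, of 15 genes Kl (-0.85), Pvalb (-1.03), Klhl3 (-0.59) and Klk1 (-0.82) fell and the calcium channel Trpv5 rose (0.57). Of 14 principal cell genes Aqp4 (-0.96), Kcne1 (-0.82) and Fxyd4 (-0.66) fell, and Sgk1, which raises sodium uptake and also responds to glucocorticoid, rose (1.72). Of 17 intercalated cell genes the anion exchanger Slc4a1 (-0.92), the ammonia channels Rhbg (-0.95) and Rhcg (-0.56) and Insrr (-0.76) fell. Without saline replicate 1, 2 and 3 the lower members numbered 1, 0 and 0 in the distal list. They numbered 1, 0 and 0 in the principal cell list and 1, 0 and 1 in the intercalated cell list. In the fit over 12 libraries the lower members of these lists numbered 0, 2 and 0. Kl encodes klotho, the coreceptor for the phosphate hormone FGF23, and in the list of klotho, vitamin D and phosphate Kl, Slc34a1, Slc34a3, Fgfr3 (-1.07) and Pth1r (-0.97) fell and Slc20a1 rose (0.64) among 13. Of 23 endothelial genes Angpt2 (-1.02) and Aplnr (-1.40) fell, with medians of -0.13 and -0.71 in ADR replicates 1 and 3, and 17 would be called lower without replicate 1. In the list of mesangium, pericyte and renin cells (19 genes, median 0.03), Agt, angiotensinogen (2.96), Tagln (1.10), Pdgfb (0.99) and Mcam (0.48) rose. Agtr1a (-0.78) and Itga8 (-0.89) of the same list fell. The cells that made these RNAs, Agt and Pdgfb among them, cannot be told in whole kidney. Among 22 nephron transcription factors 2 fell, among them Emx1 (-0.57), and Pax8 rose.

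**Figure D3:**
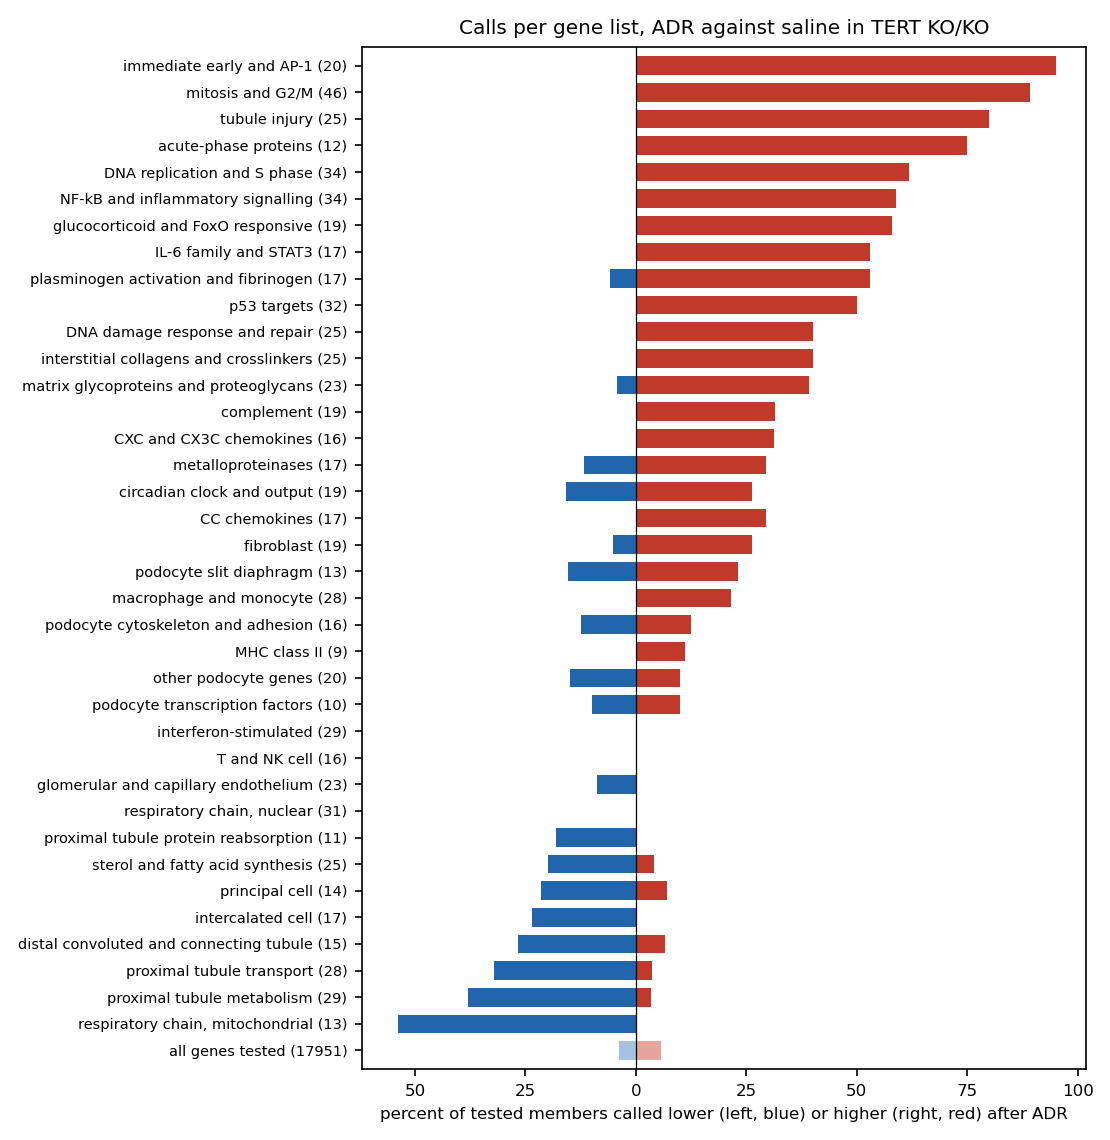
Percent of the tested members of each gene list called higher (red, to the right) or lower (blue, to the left) after ADR in TERT KO/KO kidneys, with the number tested in brackets and all 17951 genes in the bottom row (5.69% higher, 3.83% lower). Immediate early, mitotic and tubule injury genes hold the largest shares called higher of the lists drawn, and mitochondrially encoded genes and those of proximal tubule metabolism and transport the largest shares called lower.

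Mitochondrially encoded genes of energy metabolism fell. Of 13 mitochondrially encoded subunits of the respiratory chain 7 were lower and none higher (median -1.09), with mt-Nd3 at 2.60 and 4.42 CPM after ADR and 12.4, 14.8 and 14.6 CPM after saline (log2 fold change -1.99, SE 0.25, edgeR adjusted p = 0.00469). mt-Co3 (-1.47), mt-Co2 (-1.34) and mt-Atp8 (-1.42) fell too. These named genes hold few of the list's reads. The list summed to 141430 and 134230 CPM in ADR replicates 1 and 3 and 162180, 243900 and 196460 CPM in the saline libraries. Its first member, mt-Nd1, stood at 19790 and 17295 CPM after ADR and 26462, 43542 and 32820 CPM after saline (scaled over 12 libraries). In wild-type kidneys, mitochondrially encoded genes took 13.97 to 17.8% of counts after saline and 9.57 to 19.2% after ADR. The list's median was -1.06 and -1.08 in ADR replicates 1 and 3, and from -0.29 to 0.33 in the saline kidneys. The lower members numbered 9 and 6 without ADR replicate 1 and 3 and 5, 5 and 6 without saline replicate 1, 2 and 3, and 1 in a fit over all 12 libraries. Of 31 nuclear subunits edgeR called none, with 13 at an unadjusted p under 0.05, 8 by DESeq2 and 0 by limma voom (median -0.42), and without ADR replicate 1 it called 27 of them lower. Of 35 genes of fatty acid oxidation 2 rose, among them Angptl4 (3.11), a target of PPAR alpha, and Acadm (-0.92) and Etfb (-0.73) fell. These shares lie near those over all genes tested, 5.69% higher and 3.83% lower. Of 25 genes of sterol and fatty acid synthesis 5 fell, among them Cyp51 (-1.55), Insig1 (-1.07), Elovl6 (-0.76) and Srebf1 (-0.69), and Sqle rose (0.84). Of 23 glycolytic genes Hk2 (2.07), Eno2 (1.51) and Slc16a3 (1.36) rose. Hmox1, heme oxygenase, rose (2.14), as did Cp and Slc39a14 (0.93), while Tfrc (-0.68), Slc11a2 (-0.81) and Slc39a8 (-0.97) fell among 16 heme and iron genes. Catalase, Cat, fell (-0.78) and was the 1 gene called of 25 antioxidant genes, of which 14 were called lower without ADR replicate 1 and 4 by DESeq2. Among 17 genes of doxorubicin export, reduction and targets, Top2a and Xdh (1.24) rose and Cbr1, which reduces doxorubicin to its alcohol, fell (-0.81).

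Genes induced by glucocorticoid or FoxO factors rose in 11 of 19 tested, with none lower (median 0.96). Fkbp5, a chaperone of the glucocorticoid receptor, stood at 187 and 93.1 CPM after ADR and 16.5, 20.1 and 24.1 CPM after saline (log2 fold change 2.80, SE 0.29, edgeR adjusted p = 0.0029), and Zbtb16, a transcription factor, at 25.3 and 16.4 CPM after ADR and 2.62, 3.88 and 3.33 CPM after saline (log2 fold change 2.67, SE 0.24, edgeR adjusted p = 0.00185). For both genes ADR replicate 1 was the higher of the 2, unlike for Cxcl1 and Ccl2. Sgk1, Dusp1, a MAP kinase phosphatase (1.74), Mt2, a metallothionein (2.22), and Tsc22d3 (1.95) rose as well. Of 19 clock genes 5 rose and 3 fell. Nr1d1, the repressor REV-ERB alpha, stood at 51.8 and 49.8 CPM after ADR and 207, 234 and 181 CPM after saline (log2 fold change -2.03, SE 0.16, edgeR adjusted p = 0.00148). Dbp, a clock output factor (-1.46), and Bhlhe41 (-0.73) fell with it, and Cry1 (2.15), Nfil3 (1.94), Per1 (1.62) and Per2 (0.80) were among the 5 that rose, of which Per1 is itself induced by glucocorticoid. The hour at which each kidney was taken is not given in the sources used here, and its part in the clock genes was not tested. Leave-one-out counts of higher glucocorticoid and FoxO genes were 11 and 12 without ADR replicate 1 and 3 and 9, 9 and 11 without saline replicate 1, 2 and 3.

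**Figure D4:**
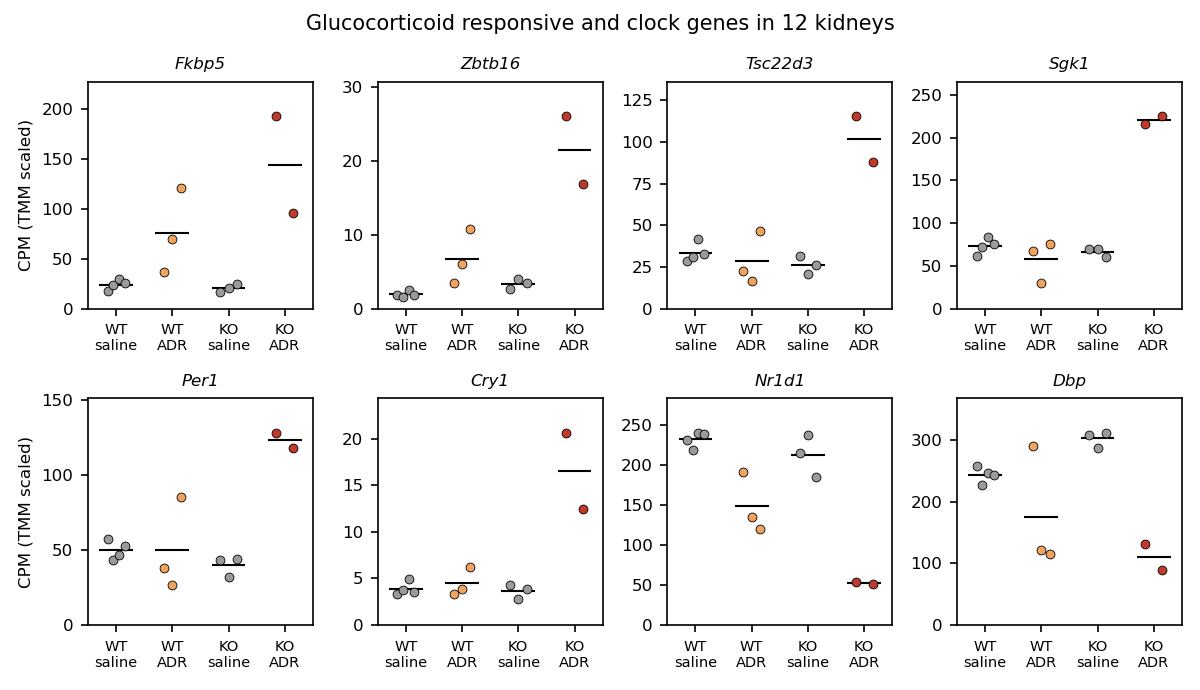
CPM (TMM scaled over 12 libraries, linear y axis from 0) of 4 glucocorticoid responsive and 4 clock genes in each kidney of wild-type (WT) and TERT KO/KO (KO) mice given saline (grey) or ADR (orange and red). Each point is 1 library and each bar a group mean. The 2 KO ADR kidneys lie above all KO saline kidneys for the first 6 genes and below them for Nr1d1 and Dbp.

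In the unfolded protein and integrated stress response, Atf3, Atf4 (0.85) and Asns (1.01) rose among 25, while the chaperone Hspa5 stood at -0.23 (edgeR adjusted p = 0.448). Of 20 genes of MYC and ribosome biogenesis 6 rose, with Myc, Gnl3 (0.72), Rrp12 (0.98) and Nop56 (0.72), and Odc1 fell (-0.87). Without saline replicate 1, 2 or 3 the higher members of that list numbered 2, 2 and 1. Of 31 Wnt pathway genes Wnt9b (-2.01), Wnt2 (-1.85), Sfrp2 (-1.35) and Wnt11 (-1.05) fell and Wnt10a rose (1.63). Of 21 Notch genes the glycosyltransferases Rfng (-0.76) and Mfng (-0.79) fell, and of 14 Hedgehog genes Ihh rose (0.94). Over all genes tested, 5.69% were called higher and 3.83% lower, so these small counts do not mark a pathway. Without saline replicate 1, 2 or 3, 0 Wnt genes and 0 Notch genes were called lower. Of 19 genes of epithelial to mesenchymal transition Cd44 and Vim rose, and of 19 integrins Itga5 (0.98) and Itgb3 (1.31) rose and Itga8 fell. edgeR called no marker of adipocytes (2 at an unadjusted p under 0.05, 1 by DESeq2 and 0 by limma voom), adrenal gland (2 at an unadjusted p under 0.05, 0 by DESeq2 and 0 by limma voom), urothelium (0 at an unadjusted p under 0.05, 0 by DESeq2 and 0 by limma voom) or skeletal muscle (1 at an unadjusted p under 0.05, 0 by DESeq2 and 0 by limma voom), and Slc4a1 was the 1 of 6 erythroid markers that fell.

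To ask whether ADR acted differently in the absence of TERT, the effect in TERT KO/KO kidneys was set against that in TERT WT/WT kidneys (3 ADR, 4 saline) as an interaction in 1 edgeR fit of 12 libraries. The difference passed the threshold for 0 of 19023 genes (0%), with 2288 at an unadjusted p under 0.05, 131 genes by DESeq2 and 15 by limma voom. The 4 genes with the smallest p shared an adjusted p of 0.0716. Among them, Cdr2 changed by a further 1.76 (SE 0.25) in the knockout, Polr3e, a subunit of RNA polymerase III, by 1.71 (SE 0.24), and Ppp1r10 by 1.17 (SE 0.17). Scaled over the 12 libraries, Sgk1 stood at 216 and 225 CPM in KO/KO ADR, 70.2, 69.2 and 59.9 in KO/KO saline, 67.0, 30.2 and 75.1 in WT ADR and 61.8, 72.0, 84.1 and 75.4 in WT saline kidneys. The ADR kidneys lay above their own controls in the knockout and around or below them in WT, and the difference of its effects was 2.08 (SE 0.37, edgeR adjusted p = 0.118). Nfil3 differed by 1.86 (SE 0.30, adjusted p = 0.0926) and Nr1d1 by -1.38 (SE 0.24, adjusted p = 0.118). None of these differences passed the edgeR threshold. The count depended on single kidneys, with 325 genes without WT ADR replicate 1, 32 without replicate 3, 2 without replicate 2, and 4 without KO/KO ADR replicate 3. The effect of ADR in WT kidneys was 3.21 for Cdkn1a (log2), and the knockout effect differed from it by 0.62 (SE 0.58).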

How the data were processed

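Total RNA from whole kidneys was extracted with RNeasy columns, sequenced as paired-end reads, trimmed with Trimmomatic and aligned to mm10 with STAR by the authors, who deposited raw read counts per gene. The counting tool, its annotation and its use of strand are not given in the sources used here. Without strand, reads of overlapping genes cannot be told apart. Of 55471 identifiers, 55230 were given a symbol and coordinates from GENCODE M21 (GRCm38). Promoters came from RefSeq (GRCm38.p6).

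The deposited counts of 5 TERT KO/KO libraries (40141593 to 45722952 each) were fitted with edgeR 4.0.16 in R 4.3.3 (TMM, filterByExpr, robust quasi-likelihood F test, Benjamini-Hochberg adjustment, threshold 0.05). A library with over 10% of its counts on Alb was left out, which removed ADR replicate 2. A second fit of 12 libraries tested the difference between genotypes. The pipeline was tested on simulated data. Alternatives were other scaling and filters, DESeq2 1.42.0, limma 3.58.1 (voom with sample weights), a replicate block, the library left out put back, each library left out in turn and, added after seeing the data, a fit without mitochondrially encoded genes. Same-numbered replicates are not labelled as pairs, no batch is labelled, and p-values measure the spread between these mice.

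Of 1329 names in 71 gene lists, 1259 were tested. The lists and the comparison were chosen with earlier results of these data known. Genes named are Tert, Alb, 4 metalloproteinases the study names, up to 4 members of each list with the smallest p and its first member, the 12 largest rises and falls (called, mean of at least 1 CPM, without predicted genes or immunoglobulin and T cell receptor segments), and the 4 smallest p of the genotype difference. Igfbp3, Etv5, Cxcl3, Ccl7, Cd74, Tnn, Mfap5, Fbln5, Mmp2, Mmp8, Mmp9, Mmp11, Mmp13, Mmp23, Mmp27, Timp3, Adam8, Tfpi2, Kirrel, Slc13a1, Klk1, Slc20a1, Mcam, Elovl6, Sqle, Slc39a14, Slc39a8, Tsc22d3, Dbp, Bhlhe41, Per2, Odc1 and Wnt11 were chosen after their values were seen. A few genes that this rule picks are not reported here. The 7 libraries of the series' other experiment were not used here.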

Additional observations from a re-analysis of the deposited data

Results flagged for a closer look

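Alb took 26.12% of the counts of TERT KO/KO ADR replicate 2, a library outside the comparison, against at most 0.00829% in the 5 libraries used. Its mitochondrially encoded share was 5.24% and 21092 genes had a count. The source of the Alb reads was not tested.

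For Cdr2 and Ppp1r10 every TERT KO/KO ADR kidney stood above the mean of its saline controls and every TERT WT/WT ADR kidney below the mean of its own. Cdr2 was 1.74 and 1.03 above in the knockout and at -0.44, -0.48 and -0.10 in the wild type (log2), a difference of effects of 1.756. Ppp1r10 was 0.62 and 0.86 above in the knockout and at -0.51, -0.60 and -0.21 in the wild type, a difference of 1.174. Both differences had an edgeR adjusted p of 0.0716, which misses the threshold, over 2 ADR and 3 saline knockout kidneys and 3 ADR and 4 saline wild-type kidneys.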

How the results depend on the processing

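The 1710 calls (1022 higher, 688 lower) became 3335 (1911 and 1424) with no filter on low counts, 2718 by DESeq2 (1516 and 1202), 1001 in the fit of 12 libraries (729 and 272) and 1 with ADR replicate 2 kept (1 and 0). They stayed within 1.5 times with another scaling (1717), a filter at 1 CPM (1576), limma voom (1464), the replicate block (1579) and no mitochondrially encoded genes (1714). DESeq2 shared 1697 of the 1710 genes and limma voom 1368. Leaving out 1 library gave 447 to 4452 calls, 276 to 2441 higher and 156 to 2011 lower, with the lowest totals without a saline kidney and the highest without ADR replicate 1, which shared 1651 of the 1710. Of 91 counts of called list members above 0, 41 moved by over 1.5 times without ADR replicate 1 (none to fewer), 23 without ADR replicate 3 (15 to fewer), and 70, 58 and 64 without saline replicate 1, 2 and 3 (70, 57 and 64 to fewer). The cause of these shifts was not tested. A lone ADR library is assumed to vary like the saline libraries.

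Same-numbered replicates deviated from their group means with correlations of -0.08 (replicate 1) and 0.08 (replicate 3), so the numbers were not taken as pairs. The replicate block left 1579 calls and no genotype difference.

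Of 240 called genes named here, 128 passed in every alternative that kept the 5 libraries and tested the gene. Over all alternatives that tested the gene, 5 passed. A gene that an alternative did not test was not counted as failing there, and with ADR replicate 2 kept only 1 gene of all those tested was called. Signs turned for 17 named genes. With ADR replicate 2 kept, the log2 fold change was 0.43 for Agtr1a, 12.5 for Alb, 0.59 for Cat, 0.46 for Hspa5, 1.05 for Insig1, -0.0065 for Mmp2, -0.13 for Mmp23, -0.032 for Pax8, 1.72 for Srebf1, -0.086 for Tert, 0.70 for Tfpi2, -0.0050 for Trpv5, 6.54 for Ttr and 0.38 for Wnt2. With 1 library left out, Adgre1 ran from -0.51 without ADR replicate 3 to 1.63 without ADR replicate 1, Cd74 from -0.31 to 2.40, Mmp2 from -0.047 to 0.80 and Mmp9 from -0.55 to 1.69 in the same way, and Tert from -0.22 without ADR replicate 1 to 0.92 without ADR replicate 3. The genotype difference was called for 131 genes by DESeq2, 15 by limma voom and 0 to 325 with 1 library left out.

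With 2 ADR kidneys, changes that the second animal did not share could not pass. Intervals from counts cover counting error only, and genes near 1 CPM rest on some 40 counts a library.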
